A study of Homo sapiens with 21 samples.

Results

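The change in gene expression between 8 h and 24 h after neocarzinostatin (NCS) was measured by comparing the 3 RNA-seq libraries made 24 h after treatment with the 3 made 8 h after it, 6 of the 21 libraries of the study. The cells were hTERT-HPNE, an immortalized nontransformed line from human pancreas, and the dose of NCS was 400 ng/ml in both groups. The study asked how the p53 and MAP kinase responses to DNA breaks and to oxidative stress shape gene expression, so the other groups were untreated cells, cells 4 h after NCS, and cells 4, 8 and 24 h after 300 µM H2O2. Every group held 3 biological replicates, and cells were plated a day before treatment in medium that was renewed when the agent was added. Untreated cells were sequenced only at the time of treatment, so that time after NCS and time in culture cannot be told apart in any change described here.

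The table lists 23368 genes. Tests covered the 19694 whose values varied, as 3674 were at 0 throughout. The values are regularized log2 counts (rLog), scaled for library size, in which the differences of sparsely read genes are shrunk toward 0. All differences below are 24 h minus 8 h on this log2 scale, given ± SE from limma with 3 libraries a group, and genes are said to have risen or fallen where the Benjamini-Hochberg adjusted p of limma was under 0.05. The files hold no counts, so the depth of a library is unknown, and values of different genes are not compared with each other because rLog values are not per length. As these are bulk samples, fewer cells of a type and less RNA per cell cannot be told apart.

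NCS is an enediyne antibiotic that cuts both strands of DNA. Breaks activate the ATM kinase and stabilize p53, which induces the CDK inhibitor p21 (CDKN1A), its own ubiquitin ligase MDM2, and genes of repair, metabolism and cell death. Low CDK activity keeps the RB family proteins bound to E2F factors and the DREAM complex assembled, and these complexes repress genes of replication and mitosis through E2F sites and the cell cycle genes homology region (CHR) of their promoters.

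Past a log2 difference of 1 the change was mostly a fall of genes of the cell cycle, whereas smaller changes went in both directions. At an absolute log2 difference over 1 together with the adjusted p, 71 genes fell (0.361% of genes tested) and 2 rose (0.0102%). The count that rose was 1 without NCS 8 h replicate 3, NCS 24 h replicate 2 or NCS 24 h replicate 3. With a limit of 0.58, 298 fell (1.51%) and 43 rose (0.218%). By the adjusted p alone the directions were nearly even, with 2953 genes that fell (15.0%) and 2930 that rose (14.9%), and the median difference over all genes tested was 0.00. Most of these changes were small. Among the 5883 genes that passed the adjusted p, the median absolute difference was 0.20 and 2924 (49.7%) differed by less than 0.2. The libraries of the groups did not overlap for 4169 genes that were lower (21.2%) and 3877 that were higher (19.7%) at 24 h. The smallest two-sided p that an exact permutation test can reach with 3 libraries a group is 0.1, so single genes rest on the limma fit.

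**Figure D1:**
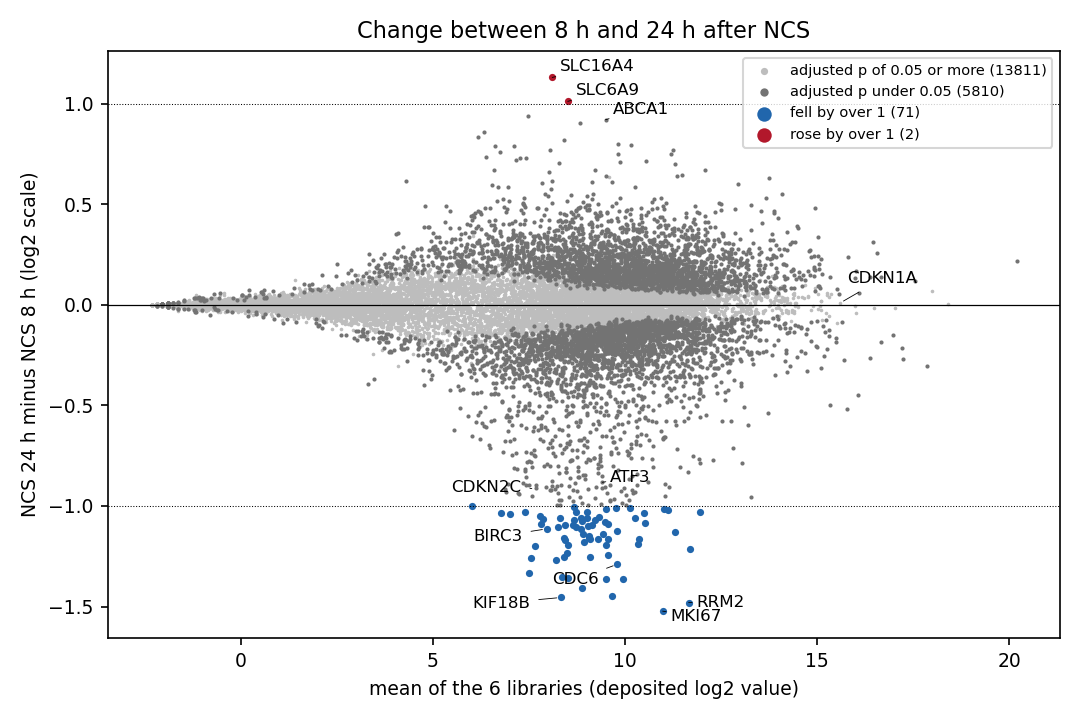
Each point is 1 of the 19694 genes tested, with the mean rLog value (log2 scale) of its NCS libraries on the x axis and the log2 difference, 24 h minus 8 h, on the y axis; colours mark genes past the adjusted p and a log2 difference of 1. The 71 fallen genes reach a log2 difference of -1.52, whereas the 2 risen genes lie just above 1.

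The deepest fall was that of MKI67, which encodes the proliferation marker Ki-67 of the mitotic chromosome surface. Its rLog values were 11.72, 11.74 and 11.77 at 8 h and 10.13, 10.24 and 10.30 at 24 h. Every 24 h library lay more than a log2 unit below every 8 h library, and the difference was -1.52 ± 0.08 (adjusted p = 4.93e-11). RRM2, the small subunit of ribonucleotide reductase, came next, from 12.42, 12.40 and 12.38 to 10.87, 10.94 and 10.95 (difference -1.48 ± 0.03, adjusted p = 3.09e-17). Of the 71 genes that fell past a log2 difference of 1, 59 (83.1%) stood on 10 hand-compiled lists of mitosis, replication, nucleotide supply, G1/S control and homologous recombination. Past 0.58 the share was lower, 168 of 298 (56.4%), with 130 fallen genes on none of the 10 lists. Past 1 the other 12 were CDCA5, FAM111B, ESCO2, TCF19, BIRC3, ERCC6L, SHCBP1, CHTF18, ZNF367, TMPO, NEIL3 and WDR62. Several of these also act on chromosomes, such as CDCA5 (sororin) and the acetyltransferase ESCO2, which together stabilize sister chromatid cohesion. CDCA5 went from 10.35, 10.36 and 10.43 to 8.89, 8.91 and 9.0, and ESCO2 from 8.26, 8.14 and 8.14 to 6.84, 6.97 and 6.97.

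Together the 10 lists held 234 distinct genes, of which 219 fell, 5 rose and 10 did not pass the test. The members were compiled with earlier results of these data known. Their direction and the shares of fallen genes on the lists are therefore descriptions and not independent evidence.

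Genes of mitotic entry and progression fell throughout. All 24 mitotic kinases, cyclins and chromosomal passenger genes fell, with a median difference of -0.84 and a range from -1.36 to -0.45. AURKB, the kinase of the passenger complex that corrects chromosome attachment, went from 9.17, 9.21 and 9.24 at 8 h to 7.79, 7.88 and 7.89 at 24 h (difference -1.36 ± 0.07, adjusted p = 1.01e-10). CDK1, the kinase that drives entry into mitosis, went from 10.15, 10.18 and 10.20 to 8.90, 8.89 and 9.0 (-1.24 ± 0.07, adjusted p = 9.59e-11). The groups were far apart for both. PLK1, a kinase of mitotic entry and spindle assembly, fell less, from 9.67, 9.66 and 9.73 to 8.89, 8.90 and 8.89 (-0.79 ± 0.11, adjusted p = 9.71e-06). CCNB1, the cyclin partner of CDK1, had a smaller difference still (-0.53 ± 0.09, adjusted p = 0.000107).

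On the list of 34 spindle and cytokinesis genes, 33 fell, with a median of -0.89. The deepest were the kinesins KIF18B (-1.46 ± 0.09), which shortens astral microtubules, and KIFC1 (-1.36 ± 0.07), which bundles spindle microtubules. CKAP5, a microtubule polymerase, was the exception at -0.05. All 27 kinetochore and centromere genes fell, with a median of -0.81, led by HJURP, the chaperone that deposits the centromeric histone CENP-A. HJURP had rLog values of 9.06, 8.97 and 9.07 at 8 h and 7.71, 7.49 and 7.83 at 24 h (-1.35 ± 0.10, adjusted p = 8.94e-09). SKA1, which couples kinetochores to microtubules, went from 8.79, 8.84 and 8.88 to 7.56, 7.55 and 7.58 (-1.27 ± 0.05). All 25 genes of chromosome condensation and chromatin fell as well, with a median of -0.80. They included ASF1B (-1.41 ± 0.06), a chaperone of histones H3 and H4, LMNB1 (-1.24 ± 0.08), a nuclear lamin, and TOP2A (-1.02 ± 0.09), the topoisomerase that untangles sister chromatids.

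Among the 14 genes of anaphase-promoting complex activity, 10 fell, 1 rose and 3 did not pass the test. The members that fell most are its periodic regulators and substrates. ESPL1 (separase, -1.17 ± 0.07), FBXO5 (the inhibitor EMI1, -1.10), UBE2C (its ubiquitin-conjugating enzyme, -1.03 ± 0.08), CDC20 (its mitotic activator, -0.97 ± 0.10) and PTTG1 (securin, -0.72 ± 0.03) lay far below the core subunits. For the subunits the differences ran from -0.16 for ANAPC1 to 0.13 for CDC16.

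Replication genes fell as well. All 22 tested genes of origin licensing and initiation fell, with a median of -0.94 and 7 past a log2 difference of 1. CDC6, which loads the MCM helicase onto origins, had rLog values of 10.45, 10.43 and 10.45 at 8 h and 9.09, 9.17 and 9.20 at 24 h (-1.29 ± 0.03, adjusted p = 1.8e-14). CDT1, its partner in licensing, went from 9.74, 9.76 and 9.63 to 8.38, 8.50 and 8.49 (-1.25 ± 0.05, adjusted p = 5.08e-12). MCM7, a subunit of the helicase itself, went from 12.26, 12.33 and 12.31 to 11.03, 11.10 and 11.13 (-1.21 ± 0.03, adjusted p = 1.8e-14). No 24 h library reached the range of the 8 h libraries for any of these 3 genes. All 26 replication fork genes fell too, with a median of -0.77. Their differences ran from -1.19 for CLSPN, the checkpoint mediator claspin, and -1.19 for FEN1, the flap nuclease, to -0.12 for RFC1, the large clamp loader subunit.

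All 11 genes of deoxynucleotide supply fell, with a median of -0.58. After RRM2 the deepest was TYMS, thymidylate synthase, from 9.68, 9.63 and 9.64 to 8.40, 8.50 and 8.57 (-1.16 ± 0.06, adjusted p = 5.23e-11). Of 25 genes of G1/S control and the E2F network, 19 fell, 3 rose and 3 did not pass the test, with a median of -0.35. MYBL2 (B-MYB), which joins the MuvB core on mitotic promoters, fell by 1.36 on the log2 scale, from 10.58, 10.68 and 10.65 to 9.18, 9.28 and 9.35. E2F1 (-0.95 ± 0.05), the activator of S-phase genes, FOXM1 (-0.95 ± 0.05), the activator of mitotic genes, and CCNE2 (-0.93 ± 0.05), a CDK2 cyclin, fell too. The 3 members that rose were CCND2 and CCND1, the D-type cyclins, and RBL2, the p130 pocket protein of DREAM. CCND2 went from 9.66, 9.66 and 9.52 to 10.19, 10.13 and 10.11 (0.53 ± 0.09, adjusted p = 8.1e-05), RBL2 rose by 0.22 ± 0.04 and CCND1 by 0.17 ± 0.02.

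The earlier course to 8 h was compared by list medians. The comparisons with untreated and 4 h cells share libraries with the change from 8 h to 24 h, and their values are given side by side only. The 24 mitotic kinases and cyclins had a median difference of -0.81 from untreated cells to 4 h after NCS, of -0.28 from 4 h to 8 h and of -0.84 from 8 h to 24 h. For the 22 licensing genes the same medians were -0.05, -0.38 and -0.94, and for the 26 fork genes -0.03, -0.27 and -0.77. From untreated cells to 4 h the medians were -0.74 for spindle and cytokinesis and -0.41 for kinetochore and centromere, and smaller for chromosome condensation and chromatin (-0.27) and anaphase-promoting complex activity (-0.20). They were -0.03 for G1/S control, 0.00 for deoxynucleotide supply and -0.07 for homologous recombination, and differences between lists were not tested. The mean of PLK1 was 11.77 before treatment and 10.52, 9.69 and 8.89 after 4, 8 and 24 h of NCS. The means of CDC6 were 10.81, 10.97, 10.44 and 9.15. Relative to untreated cells, the median of the mitotic kinases and cyclins at 24 h was -1.93, that of licensing -1.37 and that of the fork -1.11.

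**Figure D2:**
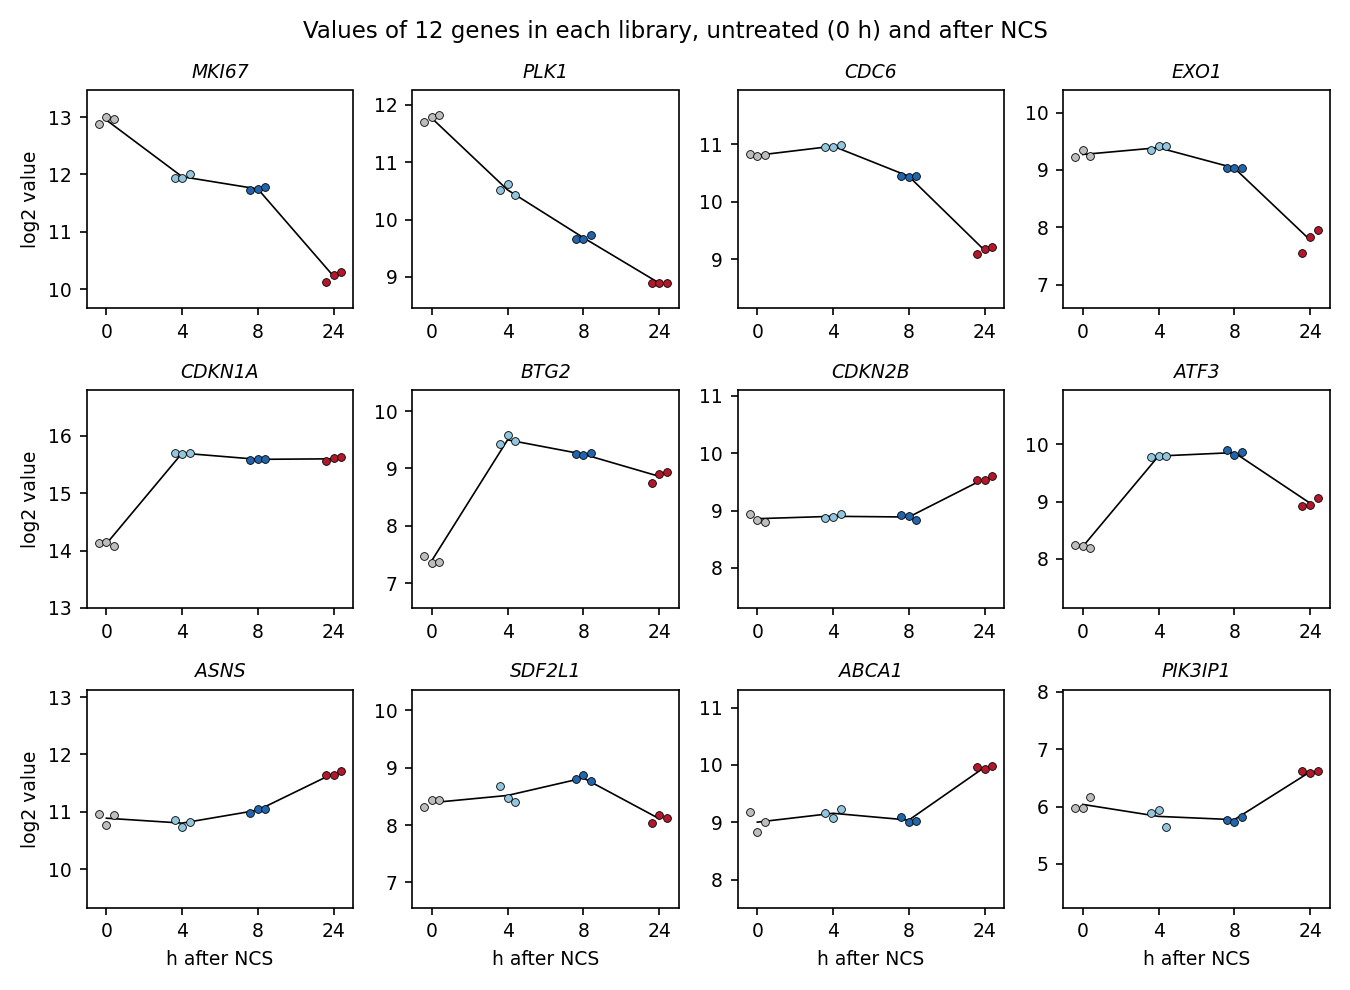
Each panel shows 1 gene, with its rLog value (log2 scale) in untreated cells and 4, 8 and 24 h after 400 ng/ml NCS; points are libraries, lines join the group means, and every panel spans the same range of log2 units. MKI67 and PLK1 already lie below the untreated level at 4 h, CDC6 and EXO1 do not, CDKN1A stays level from 8 h to 24 h, and ASNS, ABCA1 and PIK3IP1 rise between 8 h and 24 h.

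Over all 71 genes that fell past a log2 difference of 1, the medians of the same 3 steps were -0.40, -0.28 and -1.12. The last step chose these genes and spans 16 h against 4 h, so its size beside the others is a description only. The 43 genes that rose past 0.58 had medians of -0.06, 0.10 and 0.71, and they were 0.02 above untreated cells in the median at 8 h.

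Repair genes that act on replication forks fell with the replication genes, and end joining genes fell by less. Of 26 genes of homologous recombination and the Fanconi pathway, 22 fell, 1 rose and 3 did not pass the test, with a median of -0.82. EXO1, a nuclease that resects break ends, had values of 9.03, 9.03 and 9.04 at 8 h and 7.56, 7.82 and 7.95 at 24 h (-1.25 ± 0.07, adjusted p = 7.4e-11). Its libraries showed no overlap between the times. POLQ (-1.14 ± 0.06), the polymerase of microhomology end joining, and FANCD2 (-1.07 ± 0.04), the ubiquitinated clamp of the Fanconi pathway, fell in the same range. RAD50, of the MRN break sensor, rose by 0.12 ± 0.04, while NBN, of the same complex, was at -0.05 and did not pass. The call of RAD50 was lost after quantile normalization or without replicate 1 or 2 of either time.

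Of 13 genes of nonhomologous end joining, 8 fell (5 after quantile normalization), 1 rose and 4 did not pass, with a median of -0.15. The deepest was PRKDC, the DNA-dependent protein kinase, from 13.18, 13.20 and 13.25 to 12.82, 12.80 and 12.84 (-0.39 ± 0.04, adjusted p = 1.57e-07). TP53BP1, which steers breaks toward end joining, rose by 0.17 ± 0.03. Of 16 damage checkpoint genes, 9 fell, 1 rose and 6 did not pass, with a median of -0.20. ATM, the kinase at the top of the response, was the member that rose (0.18 ± 0.05, adjusted p = 0.00761), and its partner kinase ATR was at -0.08. CHEK1 and CHEK2, the effector kinases, fell, with differences of -0.15 and -0.28.

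The promoters of the fallen genes were examined because these genes moved together. RefSeq promoter windows (GRCh38.p14) covered the 250 bases before and 50 bases after each start site, 300 bases in all, and were matched by gene symbol, on both strands, to TTTGAA for the CHR, to CCAAT, and to TTGGCGC or TTCCCGC for E2F. None of these motifs contains another. Windows were found for 61 of the 71 genes that fell past a log2 difference of 1, for 32 of the 43 that rose past 0.58 and for 13964 of the 19694 tested. The 4 genes each with the deepest falls that held a CHR or an E2F match before a start site free of overlap with another gene are shown, as 150 bases that end at the base before the start site, 5′ to 3′ on the gene's strand, with the match in capitals. A match on the opposite strand appears as its reverse complement. The CHR matches came first.
MKI67 (chr10:128126424-128126573, minus strand): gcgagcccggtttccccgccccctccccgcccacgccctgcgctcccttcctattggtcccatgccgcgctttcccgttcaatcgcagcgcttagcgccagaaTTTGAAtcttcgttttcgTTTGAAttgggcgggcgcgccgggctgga
ASF1B (chr19:14136590-14136739, minus strand): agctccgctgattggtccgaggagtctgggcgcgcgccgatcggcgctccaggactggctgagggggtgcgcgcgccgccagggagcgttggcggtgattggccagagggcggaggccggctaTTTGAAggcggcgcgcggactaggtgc
HJURP (chr2:233854536-233854685, minus strand): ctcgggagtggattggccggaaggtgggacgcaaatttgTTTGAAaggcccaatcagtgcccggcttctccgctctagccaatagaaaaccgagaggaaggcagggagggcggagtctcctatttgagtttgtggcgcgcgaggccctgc
KIF15 (chr3:44761644-44761793, plus strand): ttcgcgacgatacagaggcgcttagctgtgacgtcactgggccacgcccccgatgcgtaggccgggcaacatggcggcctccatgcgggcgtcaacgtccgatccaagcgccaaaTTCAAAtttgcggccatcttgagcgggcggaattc
The E2F matches were these.
CDCA5 (chr11:65084041-65084190, minus strand): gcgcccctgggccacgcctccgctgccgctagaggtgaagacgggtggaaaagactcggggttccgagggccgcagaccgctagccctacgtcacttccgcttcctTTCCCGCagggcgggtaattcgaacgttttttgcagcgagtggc
SKA1 (chr18:50374896-50375045, plus strand): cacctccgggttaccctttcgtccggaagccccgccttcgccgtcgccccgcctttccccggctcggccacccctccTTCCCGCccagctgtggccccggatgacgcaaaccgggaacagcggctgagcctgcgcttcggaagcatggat
CDT1 (chr16:88803639-88803788, plus strand): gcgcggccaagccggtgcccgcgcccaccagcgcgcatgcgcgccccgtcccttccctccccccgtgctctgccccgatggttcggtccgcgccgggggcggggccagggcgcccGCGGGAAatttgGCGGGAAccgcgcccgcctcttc
CDK1 (chr10:60778181-60778330, plus strand): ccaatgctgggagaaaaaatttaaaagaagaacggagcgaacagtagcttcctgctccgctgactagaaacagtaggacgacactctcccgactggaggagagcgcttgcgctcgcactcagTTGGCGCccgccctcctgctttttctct
In MKI67 there were 2 CHR matches, whose leftmost bases lay 47 and 29 bases before the start site, and in CDT1 there were 2 E2F matches on the opposite strand, 35 and 23 bases before it.

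Among fallen genes with a window, 49.2% held a CHR match (95% Wilson interval 37.1 to 61.4), against 15.0% of all genes tested (14.4 to 15.6). CCAAT was found in 70.5% (58.1 to 80.4) against 42.3% (41.5 to 43.1), and E2F in 45.9% (34.0 to 58.3) against 15.8% (15.2 to 16.4). Genes with several start sites have more windows in which to match, and per window the shares were 42.1%, 68.4% and 42.1% for the fallen genes and 11.6%, 34.4% and 12% for all genes tested. Over all 35116 windows of the table the shares were 15.2%, 34.6% and 9.23%. The risen genes held CHR in 28.1% (15.6 to 45.4), CCAAT in 46.9% (30.9 to 63.6) and E2F in 6.25% (1.73 to 20.1). Per window their shares were 22.0%, 38.0% and 4.0%, so a CHR share above that of all genes tested was not confined to the fallen genes. For the 240 windowed genes of the 298 that fell past 0.58, the shares were 36.7%, 66.7% and 37.9%. The intervals cover counting error only, and a match says that the letters are present, not that a factor is bound there.

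**Figure D3:**
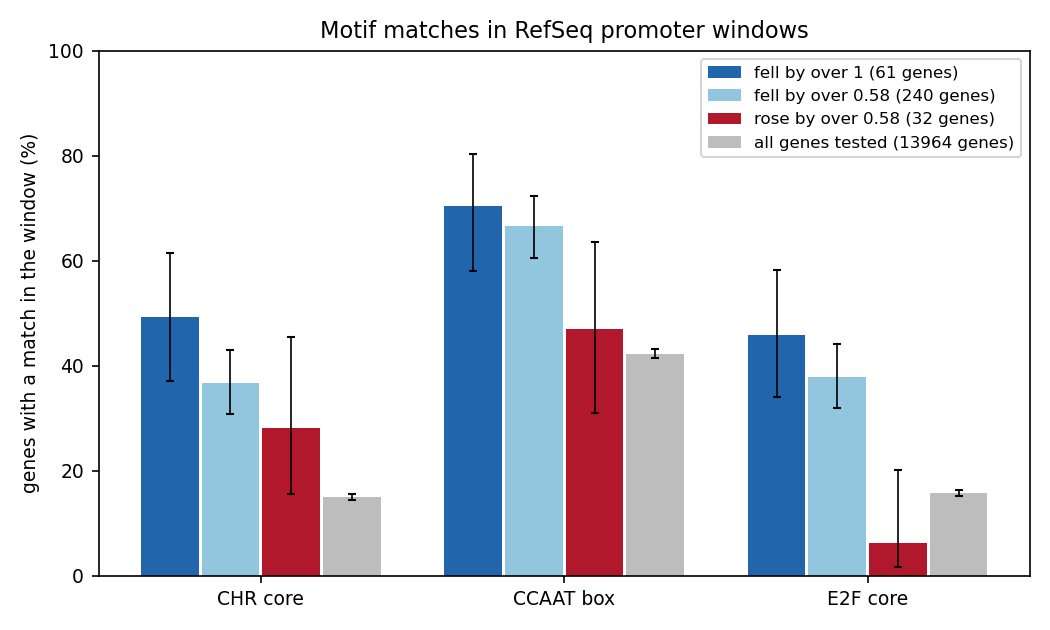
Bars show the percent of genes with at least 1 match of each motif in a RefSeq promoter window, for genes that fell past a log2 difference of 1 or 0.58, genes that rose past 0.58 and all genes tested, with 95% Wilson intervals. For CHR the bar falls from 49.2% through 36.7% to 15.0% from the deepest falls to all genes tested, with the risen genes at 28.1%. The E2F bar of the risen genes (6.25%) lies lowest.

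The p53 targets did not move together. CDKN1A had rLog values of 15.59 in all 3 libraries at 8 h and of 15.56, 15.61 and 15.62 at 24 h, which overlapped (0.01 ± 0.07, adjusted p = 0.97). Its mean was 14.12 in untreated cells and 15.70 at 4 h. MDM2 had 12.87, 12.85 and 12.76 at 8 h and 12.66, 12.72 and 12.69 at 24 h, a difference that did not pass (-0.14 ± 0.06, adjusted p = 0.0849) and did so after quantile normalization, with a mean value of at least 5 or in a fit restricted to the 2 groups (-0.16 to -0.14). GDF15, a secreted stress cytokine, had 11.45, 11.41 and 11.35 and then 11.48, 11.62 and 11.61 (0.17 ± 0.11, adjusted p = 0.313), and its difference passed in a fit restricted to the 2 groups (adjusted p = 0.0324).

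Of 24 p53 targets of feedback and arrest, 6 rose, 9 fell and 9 did not pass the test, with a median of 0.01. BTG2, an antiproliferative adaptor of the CCR4-NOT deadenylase, was the deepest fall, from 9.25, 9.23 and 9.26 to 8.74, 8.90 and 8.94 (-0.39 ± 0.07, adjusted p = 0.000196). GADD45A, a stress sensor that binds PCNA, went from 11.83, 11.65 and 11.70 to 11.33, 11.40 and 11.37 (-0.36 ± 0.05, adjusted p = 4.83e-05). BTG2 stayed far above its untreated mean of 7.39. At the other end were RPS27L, a ribosomal protein paralog (0.34 ± 0.04, adjusted p = 6.19e-07), SPATA18, a mitochondrial quality factor (0.29 ± 0.06), and TP53INP1, an autophagy and p53 cofactor (0.22 ± 0.05). RPS27L went from 11.73, 11.74 and 11.74 to 12.10, 12.04 and 12.08.

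Targets that promote cell death leaned lower, with 3 risen, 8 fallen and 5 that did not pass among 16, and a median of -0.13. They stayed above untreated cells in the median, by 0.448 at 8 h and 0.355 at 24 h. BBC3 (PUMA) went from 8.55, 8.53 and 8.56 to 8.19, 8.30 and 8.30 (-0.28 ± 0.07, adjusted p = 0.00261). PMAIP1 (NOXA) went from 10.56, 10.56 and 10.38 to 10.24, 10.24 and 10.22 (-0.27 ± 0.07, adjusted p = 0.00438), and BAX, the pore-forming member of the BCL2 family, from 11.65, 11.66 and 11.66 to 11.40, 11.41 and 11.48 (-0.23 ± 0.02, adjusted p = 5.72e-07). AEN, a nuclease of apoptotic cells, fell too (-0.39 ± 0.03), as did the death receptor FAS (-0.16 ± 0.06, adjusted p = 0.0384), which no longer passed when any library of these groups was left out. TP53I3, a quinone oxidoreductase, rose by 0.28 ± 0.04. In the 19 genes of the BCL2 family as a whole, 4 rose (21.1%, next to 14.9% of all genes tested), 7 fell (36.8%, next to 15.0%) and 8 did not pass. Here and below, shares over all genes tested include sparsely read genes, whose differences are shrunk, and were not matched to a list by level. The antiapoptotic MCL1 rose by 0.09, a call that was lost after quantile normalization.

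Of 9 repair targets of p53, 7 fell and 1 rose, with a median of -0.18. The list includes PCNA, the sliding clamp, which also belongs to the fork list and fell by 0.72 on the log2 scale, and the nucleotide excision repair genes XPC (-0.18 ± 0.04) and DDB2 (-0.13 ± 0.03). RRM2B, the p53-induced ribonucleotide reductase subunit, rose by 0.22. Of 12 metabolic targets, 4 rose, 1 fell and 7 did not pass, with a median of 0.11. FUCA1, a lysosomal fucosidase, rose from 9.21, 9.14 and 9.11 to 9.58, 9.58 and 9.64 (0.45 ± 0.06), while FDXR, ferredoxin reductase, fell from 10.77, 10.73 and 10.73 to 10.36, 10.48 and 10.51 (-0.29 ± 0.07).

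The CDK inhibitor that rose was CDKN2B (p15), from 8.93, 8.91 and 8.83 at 8 h to 9.54, 9.53 and 9.60 at 24 h (0.67 ± 0.05, adjusted p = 2.3e-09). It had been at a mean of 8.86 in untreated cells and 8.90 at 4 h. CDKN2C (p18) fell from 8.18, 8.20 and 8.05 to 7.10, 7.25 and 7.34 (-0.91 ± 0.10), and CDKN3, a CDK phosphatase listed with them, fell by 0.92. The other 5 of the 8 did not pass the test, among them CDKN1B (p27), whose values of 9.29, 9.20 and 9.05 overlapped those of 9.18, 9.23 and 9.12 at 24 h. Of 18 quiescence and forkhead target genes, 10 rose and none fell at an adjusted p under 0.05, with a median of 0.19. PIK3IP1, an inhibitor of PI3 kinase, went from 5.76, 5.73 and 5.82 to 6.62, 6.58 and 6.61 (0.83 ± 0.07, adjusted p = 2.37e-08). TXNIP, an inhibitor of thioredoxin and glucose uptake, rose by 0.71 ± 0.06, YPEL3, a growth suppressor, by 0.58 ± 0.07, and CCNG2, an unconventional cyclin of resting cells, by 0.51 ± 0.06.

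The 2 genes that rose past a log2 difference of 1 were transporters. SLC16A4, a monocarboxylate transporter family member, went from 7.51, 7.55 and 7.57 to 8.75, 8.64 and 8.64 (1.13 ± 0.06, adjusted p = 3.59e-11). SLC6A9, the glycine transporter GLYT1, went from 8.06, 8.00 and 7.96 to 8.91, 9.09 and 9.07 (1.01 ± 0.08, adjusted p = 1.3e-08). For both genes, every 24 h library lay above every 8 h library, and the untreated means of 7.45 and 8.07 were near the values at 8 h. Of the 43 genes past 0.58, 28 stood on none of the lists. The next in size among those 28, chosen after their values were seen, were UNC5B, a netrin receptor (0.94 ± 0.08), PNPLA3, a lipid droplet acyl hydrolase (0.90 ± 0.08), and SLC6A15, a neutral amino acid transporter (0.86).

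Genes of the integrated stress response, which ATF4 drives when amino acids are short or translation initiation is slowed, included 16 of 27 that rose, with 4 that fell, 7 that did not pass and a median of 0.19. ATF4 went from 12.76, 12.72 and 12.76 at 8 h to 12.98, 13.01 and 13.03 at 24 h (0.26 ± 0.06, adjusted p = 0.00203). ASNS, asparagine synthetase, went from 10.98, 11.05 and 11.05 to 11.65, 11.65 and 11.72 (0.64 ± 0.07, adjusted p = 1.11e-06). VEGFA, the vascular growth factor, went from 9.48, 9.41 and 9.34 to 10.17, 10.23 and 10.23 (0.80 ± 0.06, adjusted p = 2.48e-09). The times did not overlap for any of the 3. PSAT1 (0.65 ± 0.07), of serine synthesis, and TRIB3 (0.59 ± 0.09), a pseudokinase, rose as well. The stress factors of the list did otherwise. ATF3, a repressor induced by many stresses, fell from 9.89, 9.81 and 9.86 to 8.92, 8.94 and 9.06 (-0.88 ± 0.05, adjusted p = 2.61e-10). DDIT3 (CHOP) was at 0.05 ± 0.07 with overlapping libraries, and CHAC1, a glutathione-degrading enzyme, was at 0.14 ± 0.10 and passed only in a fit restricted to the 2 groups.

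Chaperones of the endoplasmic reticulum fell over the same interval. Of 20 genes of the unfolded protein response, 15 fell, 1 rose and 4 did not pass, with a median of -0.14. HSPA5 (BiP), the central chaperone, had 15.57, 15.58 and 15.57 at 8 h and 15.06, 15.08 and 15.09 at 24 h (-0.50 ± 0.04, adjusted p = 1.8e-08), next to a mean of 15.01 in untreated cells. SDF2L1, a BiP cofactor, fell from 8.81, 8.88 and 8.77 to 8.03, 8.18 and 8.13 (-0.71 ± 0.06), and MANF, a secreted factor of the same stress, had a difference of -0.66 ± 0.04. HSPA5 was thus back near its untreated level, while SDF2L1 and MANF lay below their untreated means of 8.39 and 10.97. Of 16 heat shock chaperones, 7 fell, 1 rose and 8 did not pass. HSPD1, the mitochondrial chaperonin, was the deepest at -0.40 ± 0.02.

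**Figure D4:**
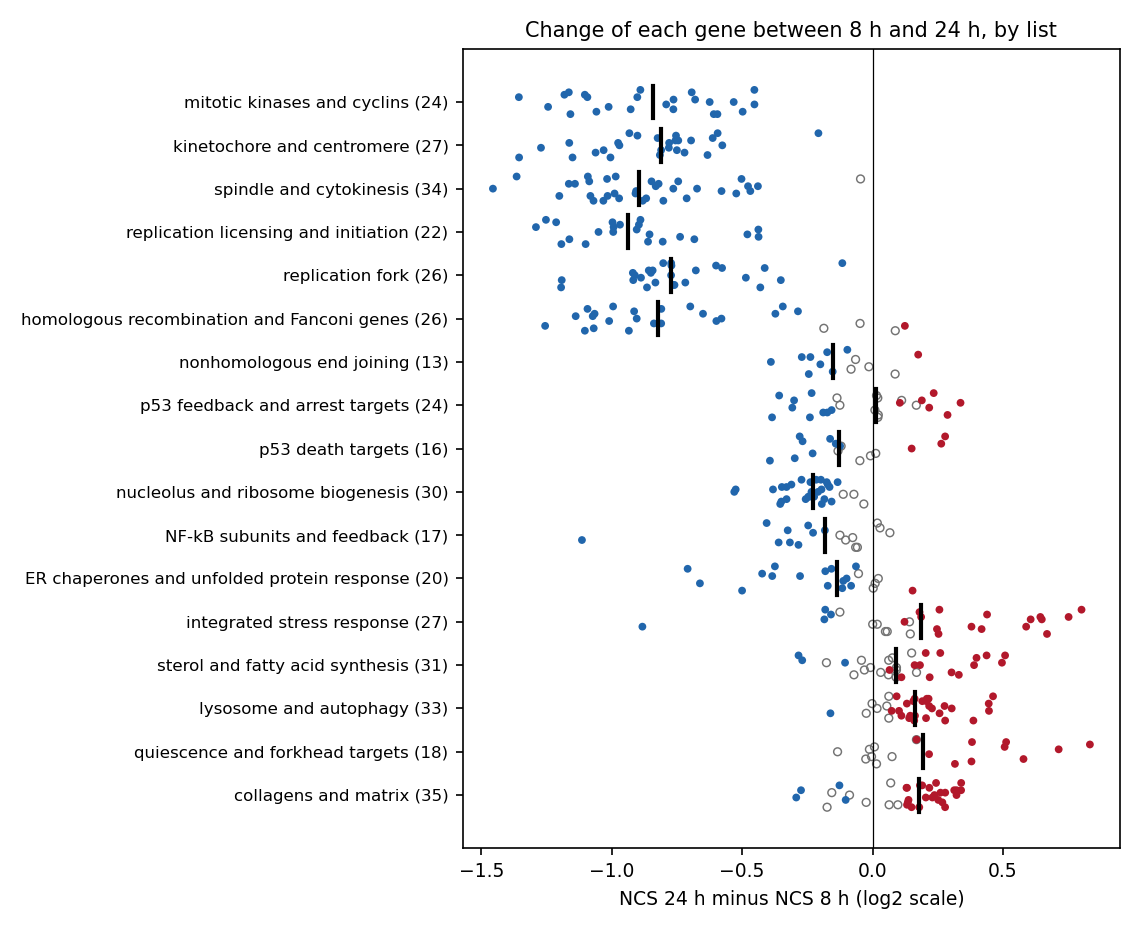
For 17 gene lists, each point is a member's log2 difference, 24 h minus 8 h after NCS, filled where the limma adjusted p was under 0.05 and open otherwise, and the black bar is the list's median. The plotted lists of mitosis, replication and homologous recombination have medians from -0.77 to -0.94, the nucleolus list lies at -0.23, and the integrated stress response and quiescence lists lie at 0.19.

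Lipid genes rose in part. Of 31 genes of sterol and fatty acid synthesis, 14 rose, 3 fell and 14 did not pass, with a median of 0.09. INSIG1, the sterol sensor that retains SREBP, went from 10.89, 10.78 and 10.80 to 11.37, 11.30 and 11.32 (0.51 ± 0.08). SCD, the stearoyl-CoA desaturase, went from 13.10, 12.98 and 13.03 to 13.57, 13.53 and 13.50 (0.50 ± 0.08). SREBF1, the transcription factor of lipid synthesis, went from 10.72, 10.64 and 10.70 to 11.12, 11.14 and 11.11 (0.44 ± 0.04). The 8 h libraries of these 3 genes lay below the untreated means of 11.22, 13.33 and 11.05, and the 24 h means were 11.33, 13.53 and 11.12. FASN, fatty acid synthase, was at -0.01 and did not pass. Of 7 genes of cholesterol efflux and LXR targets, 4 rose. ABCA1, the cholesterol exporter, went from 9.09, 9.0 and 9.02 to 9.97, 9.92 and 9.98 (0.92 ± 0.07, adjusted p = 3.31e-09), the largest rise of any listed gene.

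Lysosomal genes rose widely by small amounts. Of 33 genes of lysosome and autophagy, 26 rose, 1 fell and 6 did not pass, with a median of 0.16. The autophagosome genes GABARAPL1 (0.46 ± 0.05) and MAP1LC3B (0.39 ± 0.04) and the phosphoinositide reader WIPI1 (0.45 ± 0.03) rose most beside FUCA1. WIPI1 went from 10.32, 10.32 and 10.37 to 10.77, 10.79 and 10.78. Of 32 genes of glycolysis and the hypoxia response, 14 rose, 6 fell and 12 did not pass. PDK1, which keeps pyruvate out of the citric acid cycle, rose by 0.45 ± 0.04, and P4HA1, a collagen prolyl hydroxylase, by 0.46 ± 0.03. The glycolytic enzymes ENO1 (-0.18) and LDHA (-0.15) fell.

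Ribosome biogenesis ran the other way. Of 30 nucleolar and ribosome biogenesis genes, 27 fell and 3 did not pass, with a median of -0.23 and no rise at this test. LYAR, a nucleolar factor of ribosomal RNA processing, went from 9.83, 9.79 and 9.73 to 9.23, 9.31 and 9.23 (-0.53 ± 0.04). FBL (fibrillarin), the rRNA methyltransferase, went from 10.93, 10.99 and 11.02 to 10.42, 10.41 and 10.54 (-0.52 ± 0.04), and NCL (nucleolin) from 14.12, 14.09 and 14.07 to 13.73, 13.77 and 13.73 (-0.35 ± 0.02). Of 75 ribosomal proteins, 12 rose (16%, next to 14.9% of all genes tested), 1 fell and 62 did not pass, with differences between -0.20 and 0.14, and the count that rose was 36 with library medians aligned and 7 after quantile normalization. Of 19 splicing factors and CLK kinases, 11 fell and 4 rose. SRSF7 fell by 0.41 on the log2 scale, while the kinases CLK1, CLK3, CLK4 and SRPK2 rose by 0.16, 0.09, 0.22 and 0.18.

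Most clustered histone genes did not pass the test. Of 62 clustered histone genes, 10 rose (16.1%, next to 14.9% of all genes tested), 4 fell and 48 did not pass, with a median of 0.00, so that by count they lay near the background. The median rLog value of the list was 0.78 to 0.80 in the 8 h libraries, next to 7.17 to 7.19 over all genes tested. Differences of such sparsely read genes are shrunk toward 0, so these counts do not show that most members were stable. The members with the largest rises are given as single genes. HIST1H2AC went from 6.76, 6.64 and 6.75 to 7.48, 7.48 and 7.56 (0.79 ± 0.05, adjusted p = 2.13e-09), HIST2H2BE from 7.04, 7.12 and 7.05 to 7.80, 7.87 and 7.74 (0.73 ± 0.06), and HIST1H2BD from 6.14, 6.01 and 5.89 to 6.72, 6.79 and 6.73 (0.73 ± 0.07). Each 24 h library lay above each 8 h library for these 3. HIST1H2BK (0.64) and HIST1H1C (0.54 ± 0.06) rose too. The libraries were made from poly(A) RNA, histone messages of S phase mostly end in a stem loop without a poly(A) tail, and near-identical copies can share reads, so these values concern the tailed transcripts and single members are uncertain. The count that rose was 27 with library medians aligned.

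Inflammatory transcription factors and early response genes leaned lower, while ERK feedback genes went in both directions. Of 17 NF-kB subunits and feedback genes, 9 fell, 8 did not pass and none rose by this test, with a median of -0.18. BIRC3 (cIAP2), a ubiquitin ligase of this pathway, was the deepest, from 8.66, 8.48 and 8.42 to 7.51, 7.40 and 7.30 (-1.11 ± 0.06, adjusted p = 1.18e-10). It ended below its untreated mean of 8.02. Of 25 AP-1 and immediate-early genes, 11 fell, 3 rose and 11 did not pass. After ATF3 the deepest were KLF2, a Krüppel-like factor (-0.68 ± 0.07), and JUN (-0.47 ± 0.06). Of 23 ERK feedback genes, 10 rose, 7 fell and 6 did not pass. PHLDA1 (0.46), ETV1 (0.43) and DUSP4 (0.37) rose, and DUSP7 (-0.33) and EPHA2 (-0.29) fell.

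Secreted and matrix genes showed small rises and falls. Of 40 tested senescence-associated secreted factors, 14 rose, 5 fell and 21 did not pass, with a median of 0.00. VEGFA, PLAU (urokinase, 0.51 ± 0.06), PLAT (0.48), MMP1 (0.43) and IGFBP4 (0.39) rose, whereas IL8 (-0.23) and CXCL5 (-0.24) fell. CXCL5 no longer passed without most single libraries of these times. Of 35 collagen and matrix genes, 24 rose, 4 fell and 7 did not pass, with a median of 0.18. DCN (decorin), a small proteoglycan, went from 14.85, 14.87 and 14.86 to 15.22, 15.17 and 15.21 (0.34 ± 0.02, adjusted p = 1.96e-10). Of 29 YAP and TGF-beta response genes, 16 fell, 2 rose and 11 did not pass, with a median of -0.13. ANKRD1 went from 14.91, 14.89 and 14.94 to 14.59, 14.57 and 14.58 (-0.33 ± 0.03). Of 13 BMP targets and ID genes, 6 fell and 2 rose, with NOG, a BMP antagonist, at -0.56 ± 0.07 and ID1 at -0.41 ± 0.05.

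Of 45 interferon-stimulated genes, 15 rose, 4 fell and 26 did not pass, with a median of 0.07. STAT2, a subunit of the interferon-activated transcription factor, rose from 11.32, 11.33 and 11.37 to 11.75, 11.72 and 11.75 (0.40 ± 0.03), while OAS3, an RNA sensor, fell by 0.51 ± 0.07. Of 14 antigen presentation genes, 6 rose by at most 0.24 and 2 fell. Of the remaining lists, the respiratory chain had 20 of 72 that rose (33 with library medians aligned) and 2 that fell, the proteasome 10 of 38 that fell (5 with library medians aligned) and 1 that rose, and the NRF2 and antioxidant genes 7 of 32 in each direction. The clock genes had 7 of 18 that rose and 1 that fell, with NPAS2 at 0.43 ± 0.04 and NR1D2 at -0.35 ± 0.06. Long noncoding RNAs and snoRNA hosts had 4 of 18 that rose and 6 that fell, from SNHG1 at -0.51 ± 0.04 to MALAT1 at 0.35 ± 0.07. Notch and Wnt targets had 2 of 19 that rose and 4 that fell, from DKK1, a Wnt antagonist, at -0.60 ± 0.02 to NOTCH3 at 0.47 ± 0.03. Metallothioneins and their partners had 2 of 10 that fell, a count that was 0 without NCS 8 h replicate 3 or NCS 24 h replicate 2 and 1 without any other NCS library of these times. Shares were 21.9% in each direction for the NRF2 and antioxidant genes, and 10.5% that rose and 21.1% that fell for the Notch and Wnt targets. Over all genes tested 14.9% rose and 15.0% fell. The NRF2, the Notch and Wnt and the metallothionein lists thus lay near the background, as did the share of long noncoding RNAs that rose.

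The same interval after H2O2 was set beside these changes, since its 6 libraries are others than the NCS libraries. From 8 h to 24 h after H2O2, 74 genes fell (0.376%) and 8 rose (0.0406%) past a log2 difference of 1. Across 19694 genes the changes after NCS and after H2O2 had a Pearson r of 0.71 and a Spearman rho of 0.55, a description across genes whose values come from a single rLog transformation and that are not independent. Of the 71 genes that fell past 1 after NCS, 40 were among the 74 that fell past 1 after H2O2, 56.3% of the first list and 54.1% of the second. By the adjusted p alone all 71 fell after H2O2, next to 23.2% of all genes tested. At the limit of 0.58, 373 genes fell (1.89%) and 162 rose (0.823%) after H2O2. The falls shared 235 genes, 78.9% of the NCS list and 63.0% of the H2O2 list, and the rises shared 20, 46.5% and 12.3%. By the adjusted p alone, 295 of the 298 fallen genes fell after H2O2 and 1 rose. Of the 43 risen genes, 35 rose after H2O2 and 1 fell, next to 19.4% of all genes tested that rose.

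The difference of the changes, NCS minus H2O2, was tested directly in the fit. Past a log2 difference of 1 it was higher after NCS for 7 genes (0.0355%) and lower for 1 (0.00508%), and without H2O2 8 h replicate 2 these counts were 12 and 2. By the adjusted p alone it was higher for 2322 (11.8%) and lower for 1894 (9.62%). The deepest falls of the cell cycle occurred after both agents. For MKI67 the change was -1.52 after NCS and -1.45 after H2O2, a difference of -0.07 ± 0.11 (adjusted p = 0.713) that was -0.21 and passed without H2O2 8 h replicate 2, and for RRM2 it was -1.48 and -1.47. Of the 24 mitotic kinases and cyclins, 1 differed in each direction. The difference was not the same along the replication and repair lists. CDC6 (-1.29 after NCS, -1.63 after H2O2, difference 0.34 ± 0.05, adjusted p = 7.14e-05), CCNE2 (-0.93 and -1.48, 0.55 ± 0.07) and CDC25A (-0.97 and -1.34, 0.36 ± 0.08), a phosphatase that activates CDK2, fell less after NCS. PRIM1, the primase (-0.92 and -0.54), and TIMELESS, of fork protection (-0.84 and -0.51), fell more after NCS. Of the 26 recombination and Fanconi genes, 10 had a lower change after NCS, POLQ and FANCD2 among them, and 1 a higher one. This count of 10 was 6 without H2O2 8 h replicate 1, and in a fit restricted to the 4 groups the differences of PRIM1, POLQ and FANCD2 no longer passed.

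**Figure D5:**
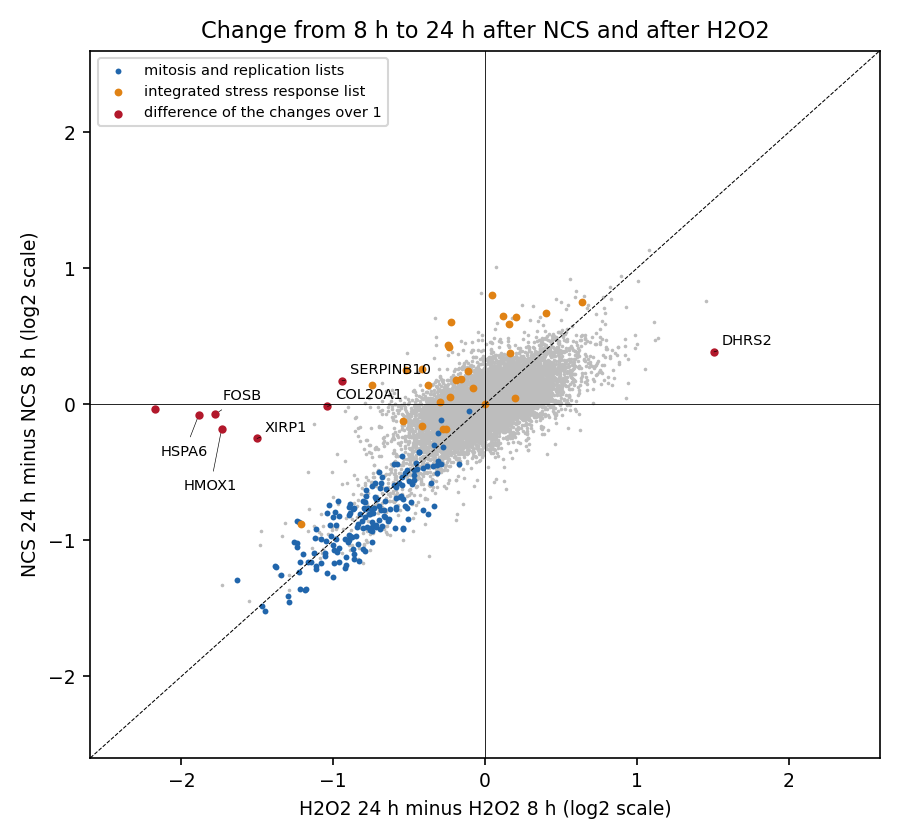
Each point is 1 of the 19694 genes tested, with the log2 difference 24 h minus 8 h after H2O2 on the x axis and after NCS on the y axis; the dashed line marks equal changes. The 71 genes that fell past 1 after NCS have a median change of -1.06 after H2O2, whereas HSPA6, FOSB and HMOX1 changed by -1.74 to -1.89 after H2O2 and by -0.07 to -0.18 after NCS.

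Several stress and metabolic lists held many members whose changes differed. Of 27 integrated stress response genes, 21 had a higher change after NCS and none a lower one at an adjusted p under 0.05, with list medians of 0.19 after NCS and -0.23 after H2O2. ATF4 rose by 0.26 after NCS and fell by 0.42 after H2O2 (difference 0.67 ± 0.08, adjusted p = 1.73e-05). SLC6A9, which is not on the list, was at 1.01 after NCS and 0.07 after H2O2 (0.94 ± 0.11, adjusted p = 1.57e-05), and VEGFA at 0.80 and 0.05 (0.75 ± 0.08). Of 20 ER chaperone genes, 16 had a higher change after NCS, with medians of -0.14 and -0.48. HSPA5 was at -0.50 after NCS and at -1.17 after H2O2 (difference 0.67 ± 0.06, adjusted p = 5.88e-07). Of 31 sterol and fatty acid synthesis genes, 16 were higher after NCS and 1 lower. SREBF1 (0.44 and -0.32, difference 0.76 ± 0.06) and SCD (0.50 and -0.32, difference 0.82 ± 0.12) moved in opposite directions. Glycolysis and hypoxia genes had 15 of 32 higher and 1 lower, and splicing factors 11 of 19 higher and 1 lower. The nucleolar list had 14 of 30 higher and 2 lower, and the YAP and TGF-beta list 9 of 29 in each direction.

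The p53 targets also differed gene by gene. BAX fell after NCS and rose after H2O2 (-0.23 and 0.15, difference -0.38 ± 0.03, adjusted p = 1.04e-06). FDXR (-0.29 and 0.29, difference -0.58 ± 0.10), XPC (-0.18 and 0.28, difference -0.45 ± 0.05) and DDB2 (-0.13 and 0.19, difference -0.31 ± 0.05) did the same. BTG2 fell after NCS and was at -0.06 after H2O2 (difference -0.32 ± 0.10, adjusted p = 0.0206), a difference that was -0.26 and did not pass without NCS 24 h replicate 1. PMAIP1 fell less after NCS than after H2O2 (-0.27 and -0.82, difference 0.56 ± 0.09). For CDKN1A and MDM2 the differences of 0.06 ± 0.11 and 0.01 ± 0.08 did not pass, though without H2O2 8 h replicate 2 that of CDKN1A was 0.21 and passed. Among genes that fell more after NCS were BIRC3 (-1.11 and -0.37, difference -0.75 ± 0.09), PRKDC (-0.39 and -0.02, difference -0.37 ± 0.05) and DKK1 (-0.60 and -0.07, difference -0.53 ± 0.04). KLF2 was at -0.68 after NCS and at 0.03 after H2O2 (difference -0.71 ± 0.10). RAD50 and ATM rose less after NCS, by 0.12 and 0.18 against 0.51 and 0.59.

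The libraries of each NCS group lay close together. Euclidean distances over all tested genes were 9.76 to 10.7 within the groups and 25.6 to 27.2 between 8 h and 24 h. H2O2 8 h replicate 2 stood apart from its group, with pair distances of up to 15.1, and the differences between the changes rest on it in part. Of 12 markers of pancreatic duct, KRT19, CFTR, EPCAM and ONECUT1 were below an rLog value of 1 in every library, and the log2 sum of the list was 11.9 at 8 h and 11.7 at 24 h. Among these duct markers 2 rose, 1 fell and 9 did not pass, with a median difference of 0.00. Of 11 mesenchymal markers 4 rose, 2 fell and 5 did not pass, with a median difference of 0.07, and none was below 1 in every library. The log2 sum of the mesenchymal list was 17.25 to 17.28 at 8 h and 17.15 to 17.16 at 24 h. These sums add unlogged values and mostly follow the highest member, whose mean at 8 h was 11.71 among duct and 17.0 among mesenchymal markers. Of 8 acinar markers 3 were at 0 in every library, PRSS1, CELA3A and PTF1A, and 4 more were below 1 in every library. Of 8 endocrine markers INS was at 0 and 6 more were below 1. Of 6 endothelial markers CDH5, KDR and CLDN5 were below 1 in every library, whereas the highest member had a mean of 8.41 at 8 h. Among these endothelial markers 1 fell and 5 did not pass, and the log2 sum was 8.41 to 8.56 at 8 h and 8.21 to 8.27 at 24 h. Of 7 immune markers CD3E and AIF1 were at 0 in every library and PTPRC and LYZ below 1. The log2 sum of the immune list went from 10.1 to 10.2 at 8 h to 10.4 to 10.6 at 24 h, with a rise of 0.37 in CD68, a lysosomal glycoprotein also found outside macrophages, and its part in the rises of lysosomal genes was not tested.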

How the data were processed

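RNA-seq libraries of hTERT-HPNE cells were made from poly(A) RNA with a stranded kit and sequenced in 7 groups of 3 biological replicates. Reads were aligned to hg19 by the authors (HISAT2), and gene counts from HTSeq were transformed in DESeq2, per the labels, the study's methods and the submitters' processing notes. The deposited log2 values are rLog values made by the authors over all 21 libraries, between -2.31 and 20.3, without counts, so that the depth is unknown and no detection limit was calculated. They were used as deposited. Rows that were 0 in every library (3674 of 23368) were left out. Of the symbols, 28 had turned into dates and 2 stood on more than 1 row.

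Groups were taken from the sample titles, except that the untreated group, titled H2O2 0, was taken from the treatment label. NCS 24 h against NCS 8 h, H2O2 24 h against H2O2 8 h and the difference of these changes were tested with limma 3.58.1 in R 4.3.3, fitted to all 7 groups together with a trend of variance on mean, and p-values were adjusted by Benjamini-Hochberg over the genes tested (19694). Genes were called at an adjusted p under 0.05 and an absolute log2 difference over 1, the limits of the study's methods. Exact permutation tests were two-sided. Tested on simulated data of NCS 24 h against 8 h with 19694 genes, the fit recovered 200 of 200 genes changed by 1.5 on the log2 scale, and 4.31% of the genes past the adjusted p were unchanged. The simulated noise was normal and independent, and the changed genes were drawn from those with a mean value of at least 5. Observed changes past the adjusted p were mostly far smaller, with a median absolute difference of 0.20. Neither figure therefore measures how reliable the observed calls are.

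The members and the gene lists were chosen with earlier results of these data known. Genes were named if they were among the 15 largest falls or rises past the threshold without overlap, on a list and past the adjusted p, among the largest differences between the treatments, or among CDKN1A, MDM2, GDF15, BTG2, GADD45A, BBC3, PMAIP1, MKI67 and PLK1. Some genes that meet this rule are not reported here. A member of a list that did not pass is named where it is set against those that did, and UNC5B, PNPLA3 and SLC6A15 were chosen after their values were seen. Promoter windows came from RefSeq (GRCh38.p14) and were matched by symbol only, since the files carry no coordinates. Windows of chromosome 8 were not printed.

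Alternatives changed the scaling (library medians aligned or quantile normalization), the filter (mean value of at least 5), the size limit, the libraries fitted (restricted to the groups compared, or with each library left out), the replicate block and the variance trend. Lists, promoters and figures were handled in Python 3.11.15 (pandas 2.3.3, numpy 2.4.6, scipy 1.17.1, matplotlib 3.10.9). The single-cell imaging, flow cytometry and RT-PCR of the study were not analysed here.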

Additional observations from a re-analysis of the deposited data

Results flagged for a closer look

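For 7 genes described here the change from 8 h to 24 h differed between NCS and H2O2 by more than 1 on the log2 scale in the test of the difference itself (limma, adjusted p under 0.05). The difference, NCS minus H2O2, was 1.81 for HSPA6 (-0.08 after NCS and -1.89 after H2O2), 1.71 for FOSB (-0.07 and -1.78) and 1.55 for HMOX1 (-0.18 and -1.74). It was 1.25 for XIRP1 (-0.25 and -1.5), 1.12 for SERPINB10 (0.17 and -0.94), 1.02 for COL20A1 (-0.01 and -1.04) and -1.12 for DHRS2 (0.39 and 1.51). In each of the 7 the larger change was the one after H2O2. Of the changes after NCS, those of HMOX1, XIRP1 and DHRS2 passed the adjusted p and the others did not. HMOX1 encodes heme oxygenase, HSPA6 an inducible heat shock protein and FOSB an AP-1 subunit, whereas XIRP1, SERPINB10, COL20A1 and DHRS2 were all near rLog values of 4 to 5 in the NCS libraries. Without H2O2 8 h replicate 2, the library that stood apart, the 7 differences were 2.03 for HSPA6, 1.66 for FOSB, 1.63 for HMOX1, 1.29 for XIRP1, 1.21 for SERPINB10, 1.17 for COL20A1 and -1.06 for DHRS2. With 3 libraries a group, no group was tested for single outlying values.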

How the results depend on the processing

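No alternative reversed a difference of a named gene that passed the adjusted p in the main fit or in the alternative. Changes of sign among differences that passed in neither were not counted. Of the 166 named genes, 152 passed the adjusted p for NCS 24 h against 8 h. Under at least 1 alternative 12 of these no longer passed and 4 others did (CHAC1, GDF15, MDM2 and SERPINB10), all with differences under 0.4 in size. FAS no longer passed without any 1 of the 6 NCS libraries, CXCL5 without any but 8 h replicate 3, and CLK3 without any but 24 h replicate 3. RAD50 was lost without replicate 1 or 2 of either time and MCL1 without 8 h replicate 2 or 3 or 24 h replicate 1. ANAPC1 was lost without 8 h replicate 1 or 24 h replicate 2, HMOX1 without 8 h replicate 3 or 24 h replicate 2, CLK1 without 8 h replicate 3, IL8 without 8 h replicate 1, DDB2 without 24 h replicate 1 and XIRP1 without 24 h replicate 2. DHRS2 and CXCL5 were lost in a fit restricted to the groups compared, CXCL5 and FAS without the variance trend, and MCL1 and RAD50 after quantile normalization. Of 36 named differences between NCS and H2O2, 4 no longer passed under at least 1 alternative (BTG2, FANCD2, POLQ and PRIM1), and those of MKI67 and CDKN1A passed without H2O2 8 h replicate 2. The difference of PRIM1 was lost without most single libraries and that of FANCD2 without 6 of the 12. Why these calls moved was not tested.

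The limit on the log2 difference set the counts. For NCS 24 h against 8 h they were 43 higher and 298 lower at 0.58 and 2930 and 2953 with the adjusted p alone. For H2O2 they were 162 and 373, and 3816 and 4569, and for the difference NCS minus H2O2 63 and 43, and 2322 and 1894. The share of fallen genes with a CHR match was 36.7% at 0.58. Aligning library medians, which raised every difference by about 0.03, gave 36 ribosomal protein genes, 33 respiratory chain genes and 27 histone genes that rose, 5 proteasome genes and 1 metallothionein that fell. Quantile normalization gave 7 ribosomal protein genes that rose and 5 end joining genes that fell.

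Leaving out each library in turn gave 1 to 3 genes higher and 64 to 81 lower for NCS, and 7 to 12 and 61 to 85 for H2O2. For the difference it gave 6 to 12 higher and 1 to 2 lower, with the upper counts without H2O2 8 h replicate 2. The metallothioneins that fell, 2 with all libraries, numbered 0 to 1, the recombination genes with a lower change after NCS 6 to 12, and the AP-1 genes with a higher one 5 to 11, the lowest without H2O2 24 h replicate 3. The other list counts stayed within 1.5 times.

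The labels number the replicates of each group 1 to 3. Deviations from the group means of same-numbered libraries at 8 h and 24 h correlated at 0.080, 0.020 and 0.165 after NCS and at 0.044, -0.055 and 0.094 after H2O2, and not every library correlated best with its own number, so the numbers were not taken as pairs. With the replicate block the counts were the same, 71 lower and 2 higher for NCS, and no call of a gene named in the text changed.

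Depth was unknown and the transformation shrinks the differences of sparsely read genes, so small changes of such genes cannot be read from these values. Without untreated libraries at 8 h and 24 h, time after NCS and time in culture cannot be told apart.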
